A study of Mus musculus with 30 samples.

Results

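The acute phase proteins are plasma proteins whose synthesis, mainly by hepatocytes, changes during inflammation and tissue injury. The transcripts of 10 of them were followed in the livers and striated muscles of mice lacking Mtm1: Saa1, Saa2, Saa3, Hp, Hpx, Orm1, Orm2, Lcn2, Apcs and Fgb. They were chosen by gene symbol, and all 10 were found among the 36103 genes of the deposited count table. RNA-seq had been performed on whole gastrocnemius, diaphragm, heart and liver of male Mtm1-/y mice (the labels write Mtm1KO) and of WT littermates, snap-frozen at 5 weeks of age. Mtm1 encodes the phosphoinositide phosphatase myotubularin, and its loss models X-linked myotubular myopathy. All mice shared a pure 129Pas background, and no treatment is named for either genotype. The knockout is not limited to 1 tissue, so that liver and muscle carried it alike. There were 3 libraries for WT liver and for Mtm1-/y diaphragm (labelled 1, 2 and 4) and 4 libraries for each of the other 6 groups. Within a group, each library came from a separate mouse.

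In the liver, interleukin-6 signals through its receptor, JAK kinases and STAT3, and together with C/EBP factors and NF-kB raises the transcription of acute phase genes. Serum amyloid A proteins are small apolipoproteins of high-density lipoprotein, haptoglobin and hemopexin bind free haemoglobin and haem, orosomucoids carry small lipophilic ligands, lipocalin 2 sequesters bacterial siderophores, serum amyloid P is a pentraxin and fibrinogen forms the clot. Several of these genes are also transcribed outside the liver: Hp and Lcn2 in white adipose tissue, and Saa3 in macrophages and adipocytes.

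Sequences are shown first where they bear on what the counts can resolve. Saa1 and Saa2 lie next to each other on mouse chromosome 7 (mm10, chr7:46740497-46742980, minus strand, and chr7:46751790-46754313, plus strand), and their coding sequences of 366 bases differed at 18 positions (95.1% identity). The stretch from coding base 40 to coding base 189 holds 12 of these differences in 150 bases, which are in capitals below, 5′ to 3′, from the GENCODE M21 transcripts.
Saa1: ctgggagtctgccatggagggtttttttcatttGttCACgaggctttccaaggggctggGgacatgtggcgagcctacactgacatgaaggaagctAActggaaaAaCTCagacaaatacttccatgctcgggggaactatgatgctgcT
Saa2: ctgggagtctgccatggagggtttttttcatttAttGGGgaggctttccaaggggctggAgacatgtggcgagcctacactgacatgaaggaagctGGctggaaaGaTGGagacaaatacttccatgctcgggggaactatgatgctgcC
Of the 50-base windows of the Saa1 transcript, the read length used, 14.8% also occurred in a transcript of another gene (Saa2 or Saa3), against 13.3% for Saa2 and 1.78% for Saa3. The share was 20.4% for Orm1 and 22.7% for Orm2, shared with each other, Orm3 and a predicted gene, and 0% for Hp, Hpx, Lcn2, Apcs and Fgb. Only uniquely aligned reads were counted, so the levels of the Saa and Orm genes rest on the windows that tell the copies apart and are less certain than those of the other 5. None of the 10 overlapped another gene in GENCODE M21.

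Promoters were searched because induction of acute phase genes is largely transcriptional. The 250 bases before the RefSeq start (GRCm38.p6) were held for 8 of the 10 genes. In 7 of these 8 the letters TTGCNNAA, a C/EBP motif, occurred on either strand, against 9.56% of all 32851 promoters of that length. The letters TTCNNNGAA, a STAT motif, occurred in 2 of the 8 (Fgb and Apcs; 7.02% of all promoters), and an NF-kB motif (GGGA, any base, TT, any base, CC) in 0 (0.98% of all promoters). The Saa1 and Saa2 stretches could be turned into each other by 13 single-base changes, insertions or deletions. A promoter of a serum amyloid A gene, of an orosomucoid and of Hpx and Fgb, whose transcripts are described in heart below, are printed 5′ to 3′ on the strand of the gene, with the C/EBP and STAT matches in capitals; no match overlapped another.
Saa1 (chr7:46742981-46743230, minus strand): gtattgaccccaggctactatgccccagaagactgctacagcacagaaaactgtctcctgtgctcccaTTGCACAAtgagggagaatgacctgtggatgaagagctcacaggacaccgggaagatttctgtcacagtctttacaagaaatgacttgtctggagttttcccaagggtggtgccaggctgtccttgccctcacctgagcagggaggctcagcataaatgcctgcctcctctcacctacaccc
Orm2 (chr4:63362199-63362448, plus strand): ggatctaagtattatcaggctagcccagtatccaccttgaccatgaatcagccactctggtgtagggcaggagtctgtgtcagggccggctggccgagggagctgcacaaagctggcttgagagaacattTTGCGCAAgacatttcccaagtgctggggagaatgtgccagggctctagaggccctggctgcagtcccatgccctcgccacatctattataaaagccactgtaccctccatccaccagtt
Hpx (chr7:105600117-105600366, minus strand): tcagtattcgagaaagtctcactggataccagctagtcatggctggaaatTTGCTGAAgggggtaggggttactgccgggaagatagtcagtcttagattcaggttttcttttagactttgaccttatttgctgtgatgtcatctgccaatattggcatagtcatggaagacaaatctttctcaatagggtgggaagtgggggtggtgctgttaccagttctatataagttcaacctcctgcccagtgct
Fgb (chr3:83049864-83050113, minus strand): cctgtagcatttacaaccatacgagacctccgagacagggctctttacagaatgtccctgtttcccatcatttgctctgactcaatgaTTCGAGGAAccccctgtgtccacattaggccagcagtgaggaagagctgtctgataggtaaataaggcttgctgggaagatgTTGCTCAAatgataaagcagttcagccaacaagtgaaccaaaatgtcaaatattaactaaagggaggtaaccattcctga
A match is a description of letters, not of binding.

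The libraries held 24873817 to 44289343 counted reads each. In counts scaled to the library total on 1 TMM scale for all 30 libraries (CPM), Mtm1 was at 15.8 to 26.9 in the WT libraries and 3.49 to 8.19 in the Mtm1-/y libraries, so that no library went against its genotype label. Tissue markers also went with the labels: Myh6, the alpha cardiac myosin, was at 17800 CPM or more in the hearts and 374 or less elsewhere, and Alb, which encodes albumin, was at 111000 CPM or more in the livers. Alb was far from uniform outside the liver: it spanned 251 to 28300 CPM in the diaphragms, with 15500 CPM or more in WT 1, 2 and 4 and Mtm1-/y 2 and 1450 CPM or less in WT 3, Mtm1-/y 1 and Mtm1-/y 4. Alb and other hepatocyte markers are given beside each muscle result, and their part in it was not tested.

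**Figure D1:**
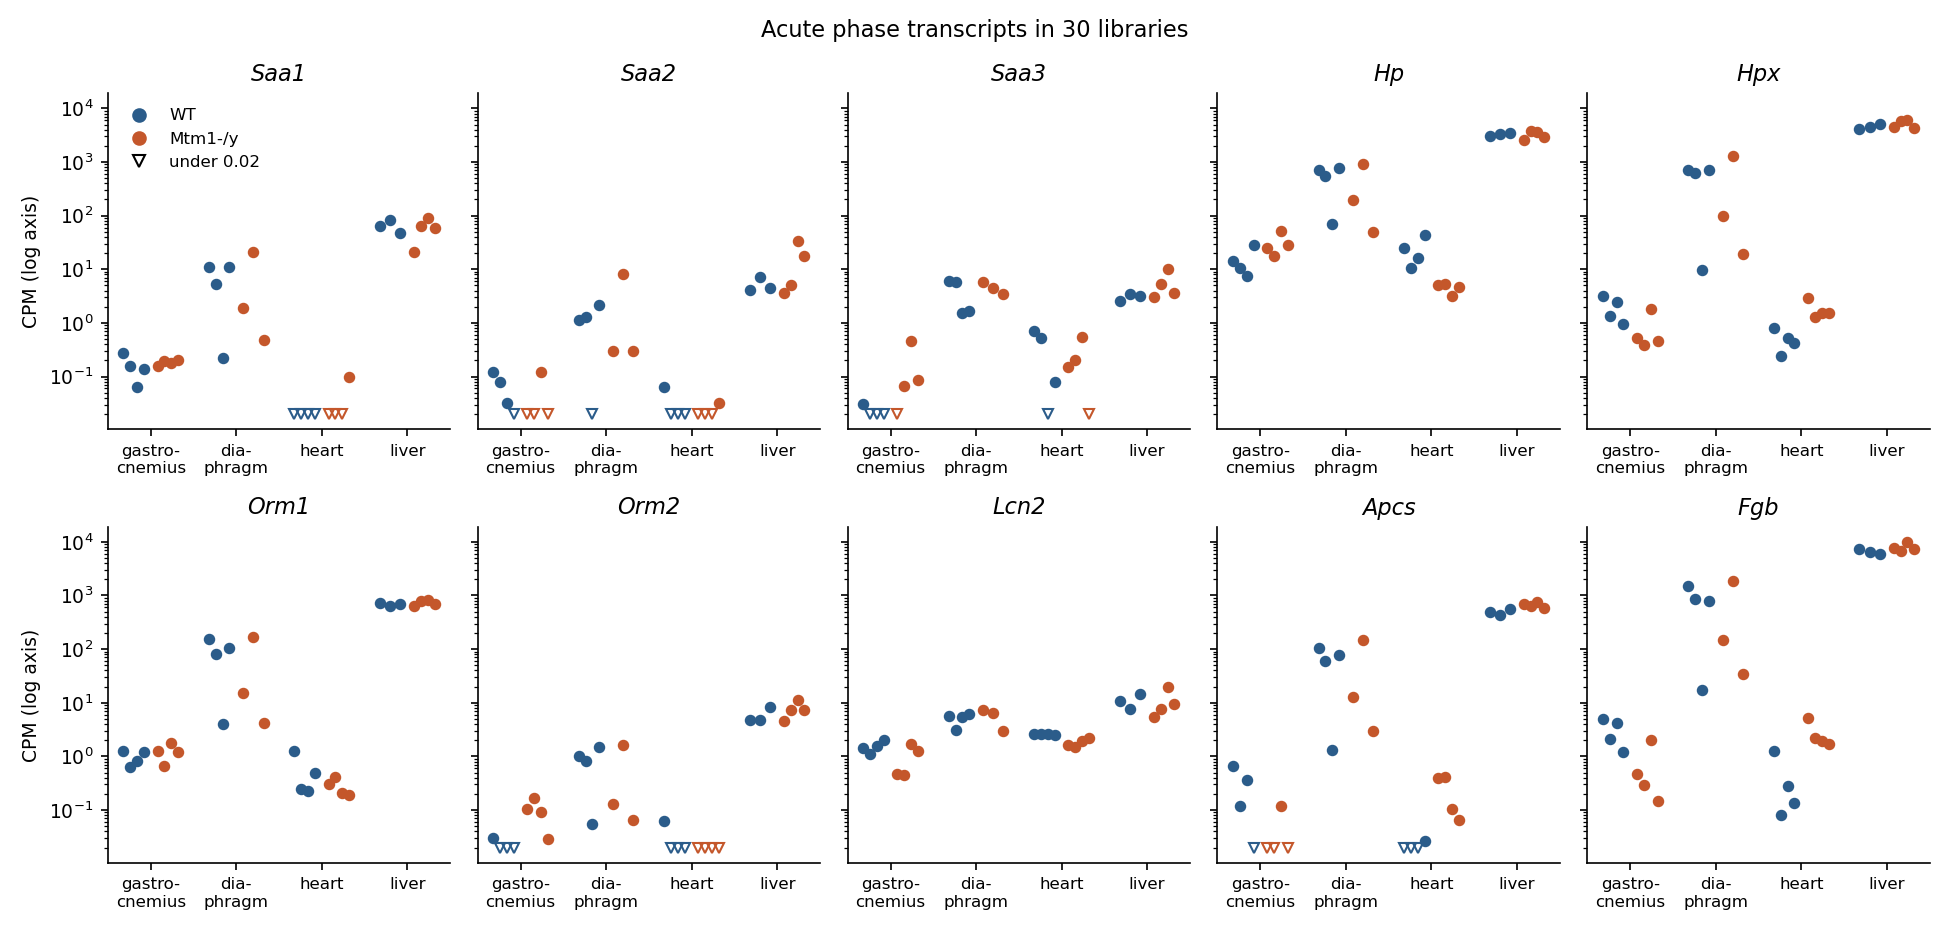
CPM (log axis) of the 10 acute phase transcripts in each library, by tissue, with WT in blue and Mtm1-/y in orange; open triangles stand for libraries under 0.02 CPM. Of the 10, 9 are highest in liver by WT mean and Saa3 in diaphragm, the diaphragms spread over orders of magnitude, and in the hearts Hp lies lower and Hpx and Fgb higher in Mtm1-/y.

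In WT liver the 10 transcripts differed widely in level. Levels of different genes are compared as TPM, the share of each gene among all transcripts, which accounts for length. Hpx came first at 5060 ± 262 TPM (SD, n = 3), followed by Hp at 4120 ± 163, Fgb at 2930 ± 466, Orm1 at 1490 ± 124, Apcs at 860 ± 81.3 and Saa1 at 179 ± 55.5. These 6 ranges did not overlap. Lcn2 at 19.9 ± 5.17, Saa2 at 13.6 ± 4.65 and Orm2 at 12.8 ± 3.58 TPM overlapped their neighbours, and Saa3 was lowest at 1.99 ± 0.297. The length taken for Saa3 was that of all its annotated exons, 2606 bases, whereas its coding transcript has 555 bases. Its TPM would be higher with the shorter length, so its distance from the other genes is uncertain. Transcripts of the haem binders and of fibrinogen led the list, Lcn2, Saa2, Orm2 and Saa3 closed it, and Orm1, Apcs and Saa1 lay between.

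None of the 10 transcripts passed the test between Mtm1-/y and WT livers. In edgeR's quasi-likelihood test, 0 of the 10 passed an adjusted p of 0.05 (0% of all 14305 genes tested passed), 1 of the 10, Apcs, was under an unadjusted p of 0.05 (4.24% of all genes), and DESeq2 also called 0 of the 10 (0.149% of all genes, 0.0299% higher). Log2 differences were above 0 for 7 and below 0 for 3, with a median of 0.21 against 0.01 over all genes. Mtm1 itself was not called by edgeR in liver (-1.60, SE 0.23, edgeR adjusted p = 0.37) but was called by DESeq2 (adjusted p = 1.3e-06). A count of 0 by edgeR in liver therefore cannot tell an unchanged transcript from a missed one.

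Among the serum amyloid A genes, Saa1 was measured at 63.1, 82.8 and 47.9 CPM in the WT livers and at 21.1, 63.6, 90.0 and 57.9 CPM in the Mtm1-/y livers. The genotypes overlapped, and both the lowest and the highest value belonged to Mtm1-/y mice (log2 difference -0.17, SE 0.39, edgeR adjusted p = 0.97 or above for all 10 genes). Saa2 stood at 4.19, 7.16 and 4.45 CPM in WT and at 3.54, 5.00, 33.5 and 18.0 CPM in Mtm1-/y livers. Here 2 of the 4 Mtm1-/y livers, 3 and 4, lay above every WT liver and the other 2 within or just below the WT range. The log2 difference of 1.48 (SE 0.71) had a 95% interval from -0.14 to 3.11, the widest of the 10. Saa3, the isoform best known from macrophages and adipocytes, ran from 2.60 to 3.48 CPM in WT and from 3.09 to 10.1 CPM in Mtm1-/y livers (0.82, SE 0.39, interval -0.08 to 1.72).

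The haemoglobin and haem binders spread less between livers, by 1.46 times for Hp and 1.48 times for Hpx from lowest to highest. Hp was measured at 3100, 3340 and 3470 CPM in WT and at 2570, 3750, 3570 and 2980 CPM in Mtm1-/y livers. The log2 difference of -0.05 (SE 0.14) had an interval from -0.37 to 0.27. Hpx was at 4160, 4410 and 5040 CPM in WT and at 4430, 5870, 6130 and 4250 CPM in Mtm1-/y livers (0.18, SE 0.16, interval -0.18 to 0.54). For both genes the genotypes overlapped.

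Orm1, the main orosomucoid of these livers, was at 642 to 730 CPM in WT against 642 to 836 CPM in Mtm1-/y (0.09, SE 0.12). Orm2 was at 4.83 to 8.32 CPM in WT against 4.64 to 11.3 CPM in Mtm1-/y (0.34, SE 0.31). Lcn2, which marks an acute hepatic response, was at 7.65 to 14.3 CPM in WT against 5.39 to 19.4 CPM in Mtm1-/y (-0.08, SE 0.40). Fgb, the fibrinogen beta chain, was at 7500, 6460 and 5940 CPM in WT and at 7670, 6680, 9830 and 7510 CPM in Mtm1-/y (0.25, SE 0.16). In each of these 4 genes the genotypes overlapped.

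Apcs, which encodes serum amyloid P, was the only one of the 10 whose livers did not overlap between genotypes (5.56% of all genes did not overlap, 2.22% higher and 3.33% lower in Mtm1-/y). It stood at 502, 431 and 564 CPM in WT and at 692, 644, 763 and 574 CPM in Mtm1-/y livers, a mean ratio of 1.34. The log2 difference was 0.41 (SE 0.14, interval 0.10 to 0.73), and it did not pass the adjustment over all genes (edgeR adjusted p = 0.97, DESeq2 adjusted p = 0.59).

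The same liver was often the highest. Mtm1-/y liver 3 was the highest of the 7 livers for 9 of the 10 transcripts, all but Hp, and Mtm1-/y liver 1 was the lowest for 6 of them. The share of all genes for which these livers were highest or lowest was not counted. Whether the pattern belongs to these transcripts or to the library was not tested. The highest liver exceeded the lowest by 9.46 times for Saa2, 4.26 times for Saa1, 3.87 times for Saa3 and 3.59 times for Lcn2, and by 1.30 to 2.44 times for the other 6. Without Mtm1-/y liver 3 or any other single liver, still 0 of the 10 were called by edgeR, which did not call Mtm1 in the full set of livers either. Mtm1-/y liver 3 also held 59 reads of the adipocyte hormone gene Adipoq against 0 to 3 in the other 6 livers. The sum of 8 white adipocyte markers, Adipoq among them, was not raised there. It was 18.9 CPM in that liver, against 20.6 to 23.9 CPM in WT and 13.2 to 25.3 CPM over all Mtm1-/y livers. The part of adipose tissue in the values of this liver was not tested.

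**Figure D2:**
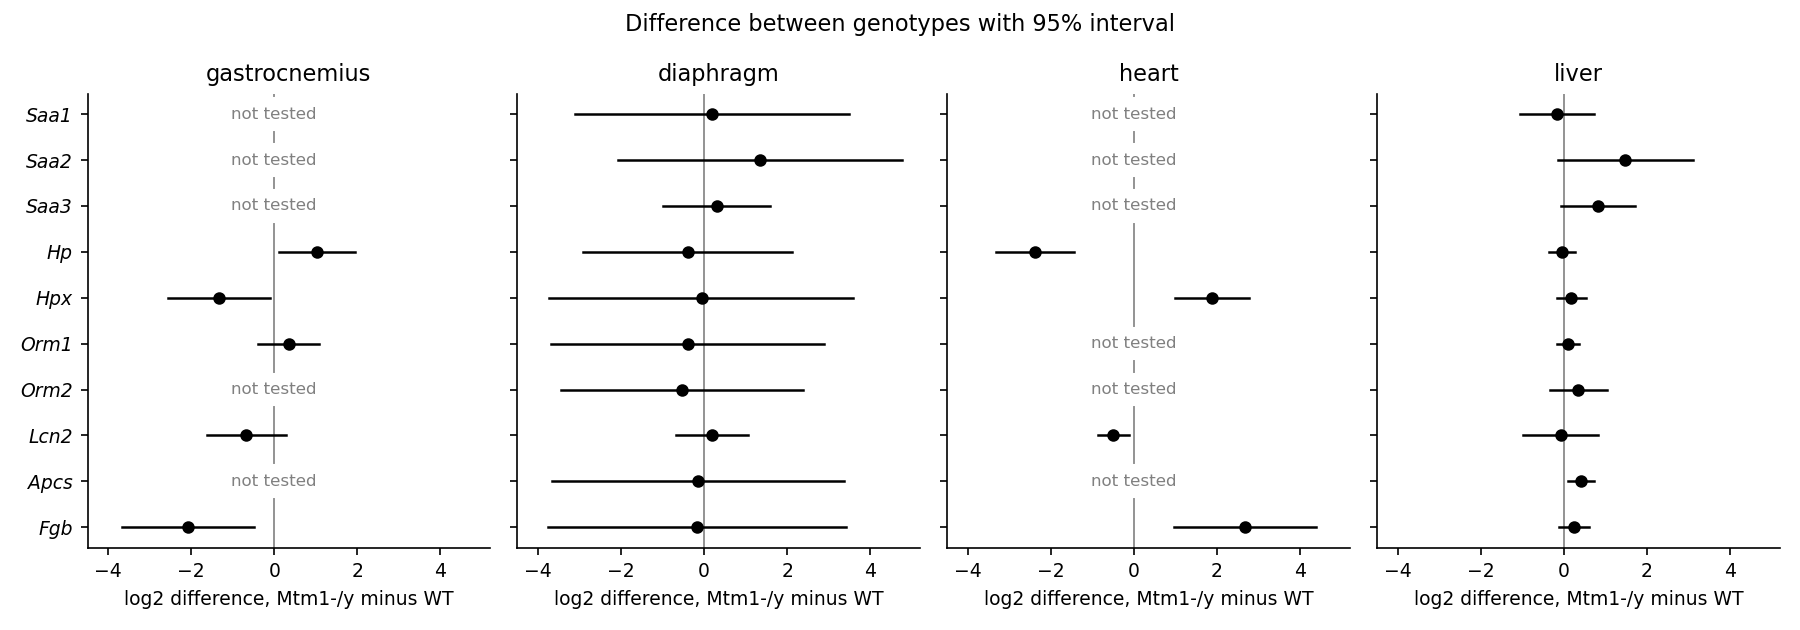
Log2 difference between Mtm1-/y and WT in each tissue (points) with its 95% interval from edgeR (bars, not adjusted for the number of genes); genes under the count filter are marked as not tested. Intervals are short in liver and long in diaphragm, and in heart Hp and Lcn2 lie below 0 and Hpx and Fgb above it.

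Outside the liver, the WT tissues were compared in 1 fit of all 15 WT libraries. All 10 transcripts were higher in liver than in heart (35.6% of the 17725 genes tested were), with log2 differences from 2.04 for Lcn2 and 3.23 for Saa3 to 13.11 for Hpx and 13.87 for Fgb. No fold is given for Saa1, Saa2, Orm2 and Apcs, which had 0 to 2 reads in all 4 WT hearts together. Hp was 7.08 higher in liver than in heart (SE 0.79). All 10 were also higher in diaphragm than in gastrocnemius (30.6% of genes, 54.4% in either direction and 59.6% under an unadjusted p of 0.05) and lower in heart than in diaphragm (29.6% of genes), with edgeR adjusted p of 0.0033 or below in both. Saa1, Saa2, Saa3, Orm2 and Apcs had 19, 7, 1, 1 and 36 reads in all 4 WT gastrocnemius muscles together. Genes this low in gastrocnemius or heart passed the count filter through tissues where they were high, so these counts of 10 are partly set by the filter. Diaphragm exceeded gastrocnemius by 1.67 for Lcn2, 5.08 for Hp, 6.43 for Orm1 and 7.97 for Hpx on the log2 scale. Alb differed by 8.29 and Adipoq by 4.02 in the same comparison, and their part in these differences was not tested.

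Between WT heart and WT gastrocnemius, 2 of the 10 were higher in heart (32.6% of genes) and 1 was lower (28.7%), with 61.3% of genes called in either direction. Lcn2 was at 2.59, 2.61, 2.67 and 2.46 CPM in the hearts and at 1.45, 1.12, 1.59 and 2.06 CPM in the gastrocnemius muscles, without overlap (0.69, SE 0.25, edgeR adjusted p = 0.026). Saa3 had 22, 19, 0 and 3 reads in the hearts and 1, 0, 0 and 0 in the gastrocnemius (edgeR adjusted p = 0.015), so that 2 hearts carried the difference. Fgb was lower in heart (-2.90, SE 1.04, edgeR adjusted p = 0.025), as was Alb (-2.74, SE 1.09, edgeR adjusted p = 0.041). Hp did not pass (0.62, SE 0.60, interval -0.68 to 1.91). DESeq2 called 2 higher and 4 lower (48.8% of its genes in either direction), and edgeR called 1 of the 10 without WT gastrocnemius 1 or without WT heart 3.

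Hp was the most abundant of the 10 in heart. It stood at 25.0, 10.6, 16.0 and 43.4 CPM in the WT hearts (48.7 ± 32.7 TPM, SD, n = 4) and at 5.16, 5.29, 3.18 and 4.68 CPM in the Mtm1-/y hearts (8.69 ± 1.89 TPM, n = 4). The genotypes did not overlap, and the mean was 5.19 times lower in Mtm1-/y. The log2 difference was -2.39 (SE 0.41, interval -3.32 to -1.45). It missed the threshold in edgeR (adjusted p = 0.35) and passed it in DESeq2 (adjusted p = 7.3e-07), and without WT heart 2, the lowest WT heart, edgeR called it as well (-2.63, adjusted p = 0.043).

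Hpx and Fgb went the other way. Hpx had 25, 9, 19 and 16 reads in the WT hearts and 97, 39, 44 and 47 in the Mtm1-/y hearts, or 0.244 to 0.788 CPM against 1.31 to 2.96 CPM. Fgb had 40, 3, 10 and 5 reads in WT and 170, 65, 57 and 52 in Mtm1-/y hearts, or 0.0814 to 1.26 CPM against 1.68 to 5.2 CPM. Neither gene overlapped between genotypes. The log2 difference of Hpx was 1.88 (SE 0.40, edgeR adjusted p = 0.46, DESeq2 adjusted p = 0.0038) and that of Fgb 2.68 (SE 0.75, edgeR adjusted p = 0.55, DESeq2 adjusted p = 0.034).

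Lcn2 was tight in the hearts: 2.46 to 2.67 CPM in WT against 1.65, 1.48, 1.97 and 2.22 CPM in Mtm1-/y, again without overlap (-0.50, SE 0.16, edgeR adjusted p = 0.55, DESeq2 adjusted p = 0.36). In all, 4 of the 10 passed the count filter in heart, and these 4 did not overlap between genotypes (4.17% of the 15238 genes tested, 2.15% higher and 2.03% lower in Mtm1-/y). Hpx and Fgb, with as few as 9 and 3 reads in a WT heart, passed it only through the Mtm1-/y hearts, where they were higher. These 4 were thus partly selected by the difference, and their counts here cannot be weighed against the shares of all genes. With edgeR 0 of the 4 were called (0.00656% of genes), though all 4 were under an unadjusted p of 0.05 (8.88%). DESeq2, which tested 7 of the 10, called 2 higher and 1 lower (0.461% of its genes in either direction).

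The other 6 were too low to test with edgeR in heart. Apcs had 0, 0, 0 and 1 reads in WT and 13, 12, 3 and 2 reads in Mtm1-/y hearts, without overlap (DESeq2 adjusted p = 0.069). Saa1 had 0 reads in the 4 WT hearts and 3 reads in 1 Mtm1-/y heart, and a count of 0 allows up to 3 reads per library. Saa2 had at most 2 reads, Orm2 at most 2, Saa3 at most 22 and Orm1 at most 40, and in these genes the genotypes overlapped.

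**Figure D3:**
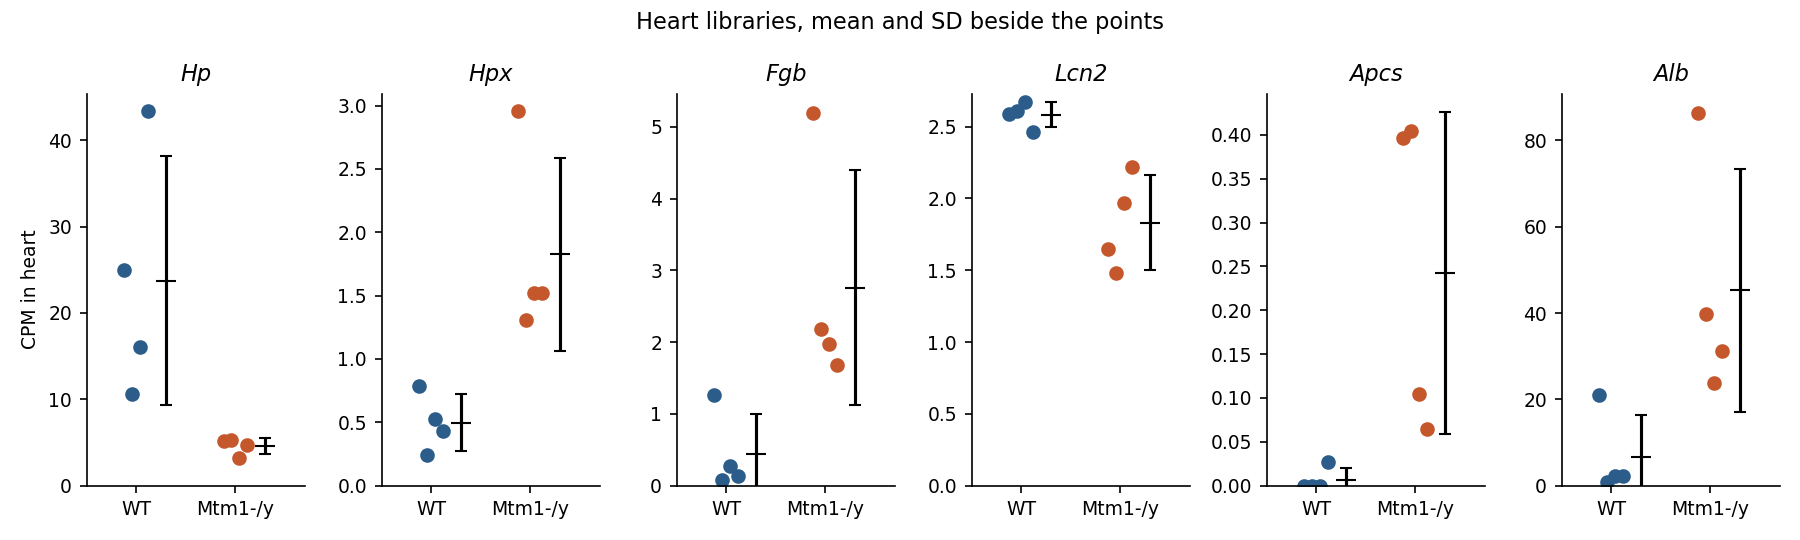
CPM (linear axes from 0) of 5 acute phase transcripts and of Alb in the 4 WT (blue) and 4 Mtm1-/y (orange) hearts; the black bar beside each group is its mean and SD. Hp and Lcn2 are lower and Hpx, Fgb, Apcs and Alb higher in every Mtm1-/y heart than in any WT heart.

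Cell type markers moved with these heart results, in opposite directions for adipocytes and hepatocytes. All 8 white adipocyte markers were lower in Mtm1-/y hearts, with a median log2 difference of -2.60 against 0 over all genes. EdgeR called 0 of the 8, all 8 were under an unadjusted p of 0.05 (8.88% of all genes were), and DESeq2 called 7 lower (0.359% of its genes were). Adipoq, which encodes adiponectin, averaged 12.5 CPM in WT against 2.25 CPM in Mtm1-/y hearts (-2.48, DESeq2 adjusted p = 1.1e-06) and Plin1, a lipid droplet coat protein, 11.3 and 1.34 CPM (-3.08, DESeq2 adjusted p = 3.1e-08). The summed level of the list ran from 271 to 523 CPM in WT and from 211 to 251 CPM in Mtm1-/y hearts, most of it Plin4. With the mean log2 level of the 8 as a covariate, added after seeing the data, the genotype difference of Hp was -0.14 (edgeR adjusted p = 0.99), and in heart this level and the genotype cannot be told apart.

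The 10 hepatocyte markers had a median log2 difference of 2.32 in heart. EdgeR and DESeq2 each called 0 of them, and 9 were under an unadjusted p of 0.05 (8 higher, 1 lower), as were 8.88% of all genes. Alb was at 21.1, 0.814, 2.20 and 2.35 CPM in WT and at 86.4, 39.7, 23.9 and 31.2 CPM in Mtm1-/y hearts, also without overlap, and WT heart 1 was the highest WT heart for Alb, Fgb and Hpx. Cyp2e1, a cytochrome P450 of hepatocytes and adipocytes, was lower at an unadjusted p of 0.05, and Ahsg was 1.71 lower without reaching it. The sum of the list ran from 7.19 to 143 CPM in WT and from 46.4 to 130 CPM in Mtm1-/y hearts. In bulk tissue, fewer cells of a type and less RNA per cell cannot be told apart.

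Ratios of 2 genes within a library do not depend on scaling. In the 7 livers, Hp ran from 17.2 to 30.1 reads and Fgb from 43.7 to 64.2 reads per 1000 Alb reads. In the hearts Fgb stayed between 53.7 and 127 reads per 1000 Alb reads, although Alb itself spanned 30 to 2828 reads: 5 of 8 hearts lay within the liver range, 3 above it and 0 below it. In the gastrocnemius Fgb was between 55.3 and 78.1 and in the diaphragm between 48.3 and 104 reads per 1000 Alb reads. It was above the liver range in 4 of 8 gastrocnemius and 5 of 7 diaphragm libraries. In no muscle library of either genotype was it under the liver range, and the highest value, 127, belonged to WT heart 3 with 10 Fgb reads.

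Hp exceeded its liver range of 17.2 to 30.1 in 23 of 23 striated muscle libraries. There were 142 to 10900 Hp reads per 1000 Alb reads in gastrocnemius, 30.5 to 276 in diaphragm and 59.8 to 18500 in heart. The lowest of these, 30.5 in WT diaphragm 1, lay just above the liver range. In WT mice, log2 Hp per Alb was 7.93 higher in heart, 3.66 higher in gastrocnemius and 1.16 higher in diaphragm than in liver. Each gave p = 0.0571 in a two-sided exact permutation test, the smallest that 4 against 3 libraries allow, so this design cannot reach 0.05. Lcn2 likewise exceeded its liver range of 0.036 to 0.126 in 23 of 23 muscle libraries, with 19.1 to 3200 reads per 1000 Alb reads in heart. Hpx exceeded its liver range of 29.6 to 41.3 in 15 of 23 libraries. In gastrocnemius, diaphragm and heart (8, 7 and 8 libraries), Orm1 exceeded its liver range in 8, 5 and 6, Saa3 in 4, 7 and 6, and Saa1 in 8, 3 and 1. For Orm2 these counts were 5, 4 and 1, for Saa2 4, 2 and 2, and for Apcs 2, 4 and 2. Apart from Orm1, these 5 genes had at most 22 reads in any gastrocnemius or heart library. There, 1 read of Saa2, Saa3 or Orm2 already exceeded the liver range and 0 reads fell below it, so exceeding means only that a read was counted. In the same order of tissues, libraries below the liver range were 0, 0 and 7 for Saa1 and 4, 1 and 6 for Saa2. They were 4, 0 and 2 for Saa3, 0, 0 and 1 for Orm1, 3, 0 and 7 for Orm2, and 6, 0 and 4 for Apcs.

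**Figure D4:**
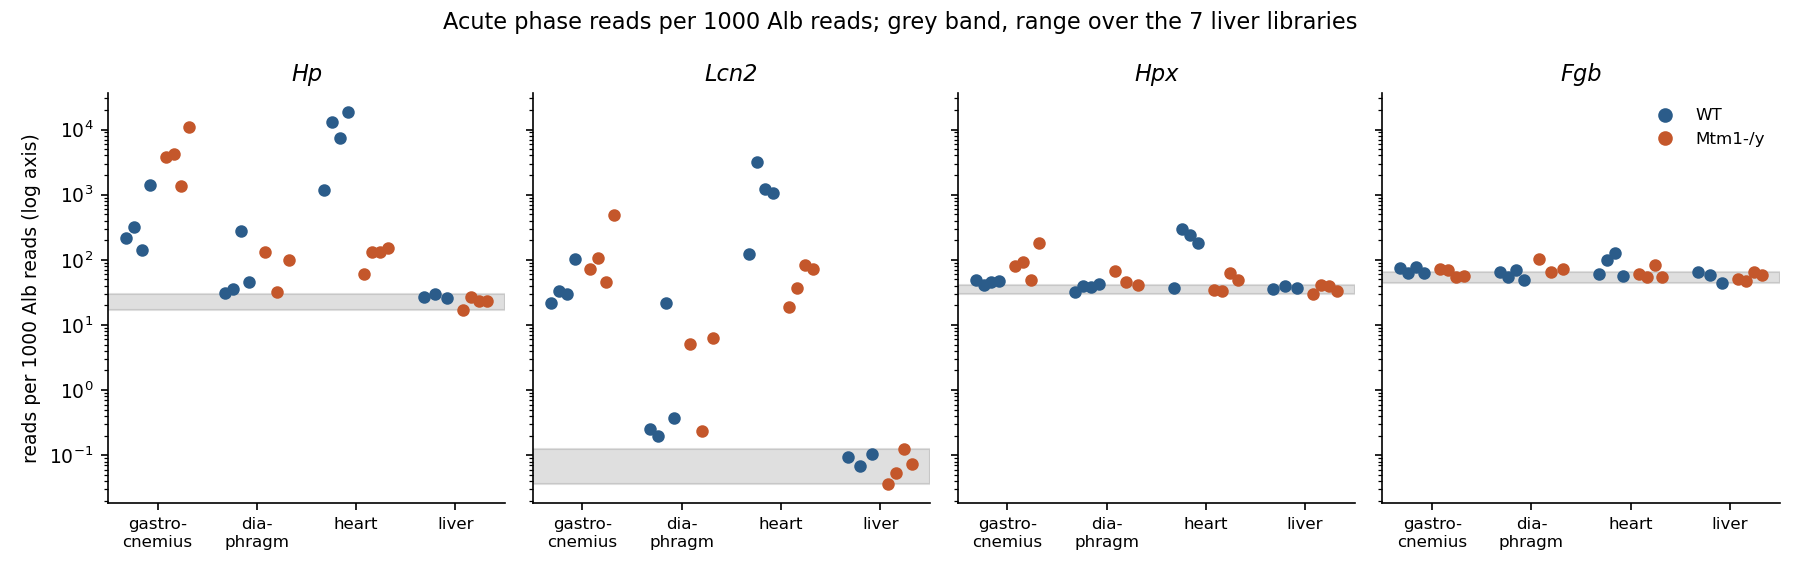
Reads of Hp, Lcn2, Hpx and Fgb per 1000 Alb reads (log axis) in each library by tissue, WT in blue and Mtm1-/y in orange; the grey band is the range over the 7 livers. Hp and Lcn2 lie above the band in all 23 muscle libraries, some diaphragms only just so for Hp. Fgb lies within or above its band, at 48.3 to 127 against 43.7 to 64.2 in the livers.

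Hp was then set against Adipoq and against the whole adipocyte list. In the WT hearts there were 794, 390, 576 and 1624 Hp reads beside 579, 217, 248 and 708 Adipoq reads, and in the Mtm1-/y hearts 169, 157, 92 and 145 Hp reads beside 89, 72, 41 and 76. Hp per Adipoq was thus 1.37 to 2.32 in WT and 1.90 to 2.24 in Mtm1-/y hearts. The mean log2 ratio differed by 0.10 between the genotypes (0.93 ± 0.36 in WT, 1.03 ± 0.12 in Mtm1-/y, SD, n = 4 each, two-sided exact permutation p = 0.714, smallest possible 0.0286). Per 100 reads of the 8 adipocyte markers together, most of them Plin4, the hearts did not overlap: Hp was at 3.91 to 8.3 reads in WT and 1.51 to 2.25 reads in Mtm1-/y. The near-equal ratio of the genotypes in heart thus holds for Adipoq and not for the sum of the list.

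In the gastrocnemius, Hp per Adipoq was 1.86 to 2.44 in WT and 1.07 to 2.26 in Mtm1-/y, where 3 of the 4 Mtm1-/y libraries (1.07, 1.19 and 1.2) lay below every WT library. The mean log2 ratio differed by -0.57 (two-sided exact permutation p = 0.114, smallest possible 0.0286). Per 100 reads of the adipocyte list, Hp was at 1.58 to 3.87 reads in WT and 3.73 to 11.1 reads in Mtm1-/y gastrocnemius. Across all 16 hearts and gastrocnemius muscles, Hp ranged from 92 to 1697 reads and Hp per Adipoq from 1.07 to 2.44. WT heart and WT gastrocnemius differed by -0.08 in the log2 ratio (exact permutation p = 0.686). Among the diaphragms, the 3 with 1450 CPM or less of Alb were within that range and the 4 above it had 3.21 to 11.6 Hp reads per Adipoq read. In liver there were at least 1430 Hp reads per Adipoq read. These ratios were examined after the values had been seen, and both genes share depth and library.

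**Figure D5:**
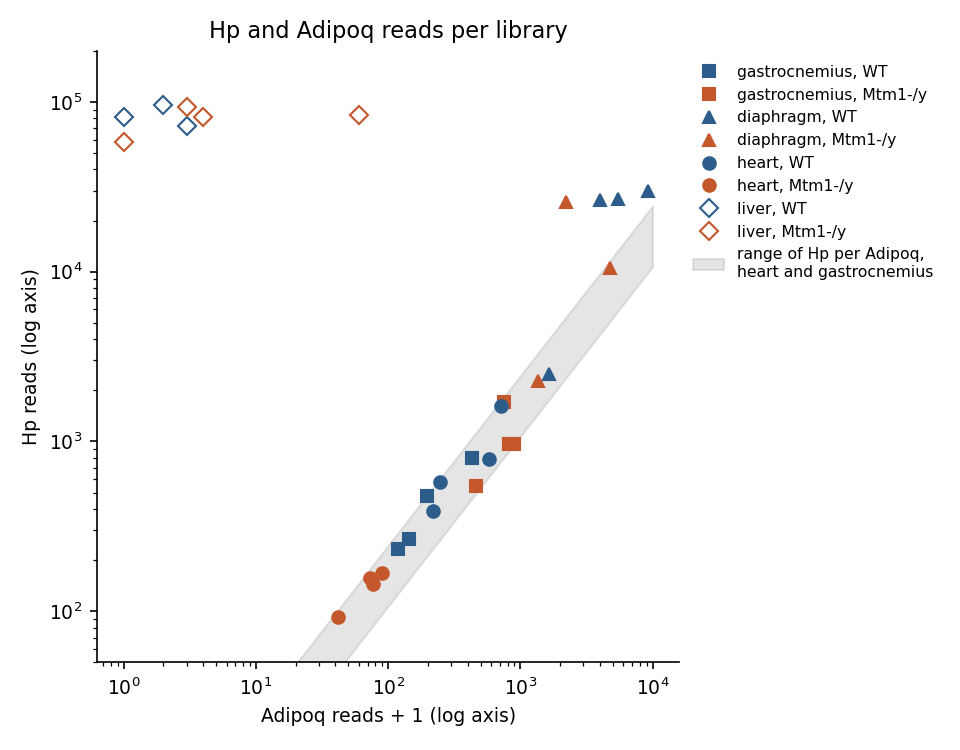
Hp reads against Adipoq reads plus 1 in each of the 30 libraries (both axes log), by tissue (symbol) and genotype (colour); the grey band spans the Hp per Adipoq ratios of heart and gastrocnemius. Hearts, gastrocnemius muscles and 3 diaphragms of both genotypes share 1 band from 1.07 to 2.44, 4 diaphragms lie above it and the livers far from it.

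In the gastrocnemius, the tissue with the most genes called between genotypes, Hp was above and Hpx and Fgb below 0 on the log2 scale, but 0 of the 10 transcripts passed in edgeR (29% of the 15456 genes tested did) and 0 of 8 in DESeq2 (25.9%). Only 5 of the 10 could be tested in edgeR, and 3 of these were under an unadjusted p of 0.05 (41.6% of genes). Hp was at 14.5, 10.6, 7.52 and 28.1 CPM in WT and at 25.1, 18.0, 50.9 and 28.2 CPM in Mtm1-/y, where WT 4 reached into the Mtm1-/y range (1.03, SE 0.41, edgeR adjusted p = 0.086). Without that mouse edgeR called Hp higher (1.49, adjusted p = 0.019). White adipocyte markers rose beside it, 6 of 8 in edgeR, Adipoq among them (from 7.62 to 21.2 CPM, 1.5, SE 0.36, edgeR adjusted p = 0.012). The summed level of the list overlapped between genotypes, at 378 to 724 CPM in WT and 349 to 757 CPM in Mtm1-/y, and Plin4, its most abundant member, did not pass (-0.53, SE 0.30).

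Fgb was at 5.01, 2.12, 4.15 and 1.22 CPM in WT and at 0.467, 0.295, 2.04 and 0.145 CPM in Mtm1-/y gastrocnemius, where Mtm1-/y 3 lay within the WT range (-2.08, SE 0.72, edgeR adjusted p = 0.053). Hpx was at 3.23, 1.36, 2.46 and 0.945 CPM in WT and at 0.519, 0.394, 1.80 and 0.465 CPM in Mtm1-/y (-1.33, SE 0.55, edgeR adjusted p = 0.094), with the same mouse within the WT range. Without WT 4, edgeR called Fgb lower (-2.35, adjusted p = 0.048). Without Mtm1-/y gastrocnemius 3, edgeR called both lower, Fgb at -3.32 (adjusted p = 0.0033) and Hpx at -2.10 (adjusted p = 0.0081). Alb had the same pattern, 36.9 CPM in that library and 2.59 to 6.52 CPM in the other 3. Of the 10 hepatocyte markers, 3 were lower and 1 higher in edgeR (median -1.82), against 14.9% lower and 14.1% higher over all genes.

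Lcn2 was at 1.12 to 2.06 CPM in WT against 0.459 to 1.68 CPM in Mtm1-/y gastrocnemius (-0.67, SE 0.42) and Orm1 at 0.639 to 1.24 CPM against 0.656 to 1.80 CPM (0.35, SE 0.33), both with overlap. Saa1 had 2 to 9 reads, Saa2 0 to 4, and Apcs 22, 3, 11 and 0 reads in WT against 0, 0, 4 and 0 in Mtm1-/y. Saa3 had 1, 0, 0 and 0 reads in WT and 0, 2, 15 and 3 in Mtm1-/y, and Orm2 1, 0, 0 and 0 against 4, 5, 3 and 1. At these counts the genotypes overlapped for all 5.

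The genotype effects in heart and gastrocnemius were tested against each other. Of the 6 transcripts that could be tested, 2 had a higher and 1 a lower effect in heart (19.8% of all 16627 genes differed). The effect on Hp was 3.39 lower in heart on the log2 scale (-3.39, SE 0.64, edgeR adjusted p = 0.0027), that on Hpx 3.22 higher (SE 0.73, adjusted p = 0.0075) and that on Fgb 4.77 higher (SE 1.14, adjusted p = 0.0098). Alb differed in the direction of Hpx and Fgb (4.57, SE 1.28, adjusted p = 0.022). Adipoq differed in the direction of Hp (-3.95, SE 0.61, adjusted p = 0.00083). Lcn2 (0.18, SE 0.48), Orm1 (-1.31, SE 0.70) and Saa3 (adjusted p = 0.19, with 1 read in all 4 WT gastrocnemius muscles) did not pass. DESeq2 called 3 higher and 1 lower of 8 (22.1% of its genes). The heart and gastrocnemius effects were each compared with the diaphragm effect as well, and edgeR called 0 of 10 in both (0.00573% and 0.28% of genes), with 0 under an unadjusted p of 0.05 and 0 called by DESeq2. Liver and heart effects were also compared: edgeR called 0 of 10 (0% of genes, 4 under an unadjusted p of 0.05), with Hp 2.34 higher in liver (SE 0.50, adjusted p = 0.36), and DESeq2, which gave an adjusted p for 1606 genes only, called 1 higher and 2 lower of 5 (5.73% of those genes). Without WT heart 1 or WT heart 2, edgeR called 1 of the 10.

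In the diaphragm the libraries of each genotype spread widely. All 10 were tested and overlapped between genotypes, edgeR called 0 (0.0119% of the 16796 genes), 0 were under an unadjusted p of 0.05, and DESeq2 called 0 of 9 (2.39% of its genes). Of all genes, 9.94% did not overlap, 4.41% higher and 5.54% lower in Mtm1-/y. Hp was at 695, 555, 69.4 and 761 CPM in WT and at 194, 913 and 48.6 CPM in Mtm1-/y diaphragms. Fgb was at 1480, 848, 17.6 and 799 CPM in WT and at 150, 1860 and 34.1 CPM in Mtm1-/y. In these and in Hpx, Orm1, Orm2, Apcs and Saa1, Mtm1-/y 2 was the highest, WT 1, 2 and 4 came next, then Mtm1-/y 1, and WT 3 and Mtm1-/y 4 were the lowest. Alb split the libraries the same way, at 22800, 15500, 251 and 16500 CPM in WT against 1450, 28300 and 480 CPM in Mtm1-/y.

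Saa3 and Lcn2 were exceptions in diaphragm. Saa3 was at 6.10, 5.78, 1.56 and 1.69 CPM in WT against 5.81, 4.53 and 3.45 CPM in Mtm1-/y (0.30, SE 0.54), and Lcn2 at 5.68, 3.08, 5.44 and 6.13 CPM against 7.48, 6.57 and 2.98 CPM (0.18, SE 0.37). Neither fell into the groups of the other genes, though both had a low value in a library with little Alb. WT 3, with the least Alb, had the lowest Saa3 of all 7 diaphragms but the third highest Lcn2 of the 4 WT diaphragms, and Mtm1-/y 4 had the lowest Lcn2 of the 7. Saa3 in WT diaphragm, 3.63 ± 2.36 TPM (SD, n = 4), overlapped its level in WT liver, 1.99 ± 0.297 TPM (n = 3). With the 4 diaphragms of 15500 CPM or more of Alb left out, a choice made after seeing the data, 1 WT and 2 Mtm1-/y libraries remained and 0 of the 10 were called.

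Other genes of the response were taken from lists chosen by their known roles. In the gastrocnemius, 8 of 17 tested among 25 other induced acute phase genes rose and 2 fell in edgeR (median 0.15 against 0.02 over all genes), where 14.1% of all genes were called higher and 14.9% lower. DESeq2 called 8 of 24 higher and 4 lower. Serpina3n, a serine protease inhibitor, went from 13.6 to 40.7 CPM (1.60, SE 0.14, edgeR adjusted p = 0.00014), Cd14, the lipopolysaccharide co-receptor, from 0.96 to 3.37 CPM (1.81, SE 0.21, adjusted p = 0.00038), and Mt2, a metal-binding metallothionein, from 26.5 to 161 CPM (2.61, SE 0.36, adjusted p = 0.00085). Of 12 plasma proteins that fall in an acute phase, 11 were tested and 1 passed, Ahsg, from 6.48 to 1.66 CPM (-1.96, SE 0.66, adjusted p = 0.049). In edgeR, 6 of the 11 were under an unadjusted p of 0.05, all lower (41.6% of all genes in either direction). Alb and Ahsg are also among the hepatocyte markers, and both lists had a median of -1.82. The part of hepatocyte RNA in this list was not tested.

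Upstream of these genes, 18 of 24 members of the interleukin-6, interleukin-1 and STAT3 pathway were tested in gastrocnemius, and 5 rose and 4 fell in edgeR, against 14.1% higher and 14.9% lower over all genes. DESeq2 called 7 of 22 higher and 4 lower. Jak2, a receptor-associated kinase, fell from 83.9 to 40.4 CPM (-1.04, SE 0.11, adjusted p = 0.00023), Tnfrsf1a, a receptor of tumour necrosis factor, rose from 29.3 to 46.5 CPM (0.68, SE 0.10, adjusted p = 0.00093), and Bcl3, a nuclear NF-kB cofactor, from 0.661 to 2.86 CPM (2.11, SE 0.32, adjusted p = 0.0012). Of 14 tested receptors and clearance genes, 8 rose and 0 fell (14.1% and 14.9% over all genes), 10 being under an unadjusted p of 0.05, all upward (41.6% over all genes), and DESeq2 called 8. Tlr4 rose from 4.71 to 12.0 CPM (1.36, SE 0.17, adjusted p = 0.00051), and Itgb2 and Tlr2 by 1.65 each. All 7 macrophage markers rose as well, Mpeg1 by 2.63 and Lyz2 by 1.87. Their part in these lists was not tested.

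The other marker lists were read for cell types that a dissected muscle can hold. In gastrocnemius, edgeR called 14.1% of all genes higher and 14.9% lower. There, all 5 skeletal muscle fibre markers fell and 2 of 3 tested cardiomyocyte markers rose. Msln (4.57), the only 1 of 5 mesothelial markers that was tested, rose as well, and 0 of 5 erythroid markers passed. Of the 8 neutrophil markers, 0 passed the count filter of edgeR. DESeq2 tested 3 and called 2 higher (12.5% of its genes were), S100a8 (adjusted p = 0.0056) and Mmp8 (adjusted p = 0.021). EdgeR called 0 members of these lists and of the macrophage list in heart, diaphragm and liver. In heart, 8.88% of all genes were under an unadjusted p of 0.05. Under it were 2 of 3 neutrophil, 2 of 7 macrophage, 1 of 5 erythroid, 2 of 5 fibre, 0 of 5 mesothelial and 0 of 5 cardiomyocyte markers. DESeq2 called 1 gene of these lists lower (0.359% of its genes were), the complement gene C1qa (-0.38). In diaphragm and liver, 10.8% and 4.24% of all genes were under that p. So were 2 cardiomyocyte markers each, and no member of the neutrophil, macrophage, erythroid, mesothelial or fibre lists. DESeq2 called 1 higher in each (1.72% and 0.0299% of its genes were), Tnnt2 in diaphragm and Myh6 in liver. White adipocyte markers had 2 of 8 under that p in diaphragm, both lower, and 0 of 2 in liver, and hepatocyte markers 0 of 10 in each, with 0 called by either tool.

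In heart, diaphragm and liver, edgeR called 0 genes of the 4 pathway lists. Over all genes, 8.88% were under an unadjusted p of 0.05 in heart, 10.8% in diaphragm and 4.24% in liver, and the counts under that p are to be read against these shares. In heart, 9 of 19 other induced acute phase genes were under an unadjusted p of 0.05 (4 higher, 5 lower), and DESeq2 called 3 lower, Mt1 (-0.92), Mt2 (-1.39) and the iron hormone gene Hamp (-4.05). Genes named here because a count was small, beyond the naming rule, were chosen after their values were seen. C3, the most abundant of them, was at 323 CPM in WT against 236 CPM in Mtm1-/y hearts (-0.46, SE 0.35). In liver, 2 of 24 were under that p and DESeq2 called 1 higher, the complement gene Cfb (0.67, SE 0.14), with C3 at 10600 and 11200 CPM (0.07, SE 0.11) and Fga, the fibrinogen alpha chain, at 9060 and 9970 CPM (0.13, SE 0.19). For the interleukin-6 pathway, 5 of 19 were under an unadjusted p of 0.05 in heart, 2 of 22 in diaphragm and 4 of 19 in liver, and DESeq2 called 0 in each. Stat3 was at 198 and 213 CPM in heart (0.10, SE 0.10), and Il6st, the shared signalling subunit of the interleukin-6 family receptors, at 198 and 184 CPM in liver (-0.11, SE 0.12). Plasma proteins that fall in an acute phase had 6 of 11 under that p in heart, all higher, and DESeq2 called 1 higher, Serpinc1 (2.16), whereas diaphragm and liver had 0 of 12 each with 0 called by DESeq2. The median of this list in heart was 1.98, beside 2.32 for the 10 hepatocyte markers, of which 8 were higher and 1 lower under that p. Alb and Ahsg are in both lists, and the part of hepatocyte RNA was not tested. Receptors and clearance genes had 1 of 15, 2 of 16 and 0 of 16 in heart, diaphragm and liver, and DESeq2 called 1 higher in diaphragm, Fcgr1 (1.81). Among 25 other induced genes in diaphragm, 0 were under that p and DESeq2 called 0.

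Over the 23 striated muscle libraries, the genes whose log2 CPM was most like that of Hp, among 18047 genes, were Pck1 (Pearson r = 0.988), Acp5 (0.986) and Chdh (0.981). For Saa3 they were Vmn2r26 (0.943), F5 (0.934) and Mcemp1 (0.934), and for Lcn2 they were Npr1 (0.875), Nrxn2 (0.873) and Adgrg3 (0.873). Tissue differences enter these values: within the hearts r was 0.96 for Pck1 with Hp and 0.12 for Npr1 with Lcn2. The libraries share tissues and scaling, and no test was made.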

How the data were processed

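Whole-tissue RNA had been converted to poly-A libraries with a strand-marking kit (TruSeq Stranded mRNA) and sequenced as single-end reads of 50 bases. The authors trimmed reads with cutadapt 1.10, mapped these with STAR 2.5.3a on the mm10 build, counted uniquely aligned, non-ambiguous reads per gene with HTSeq 0.6.1p1, and deposited the raw counts used here. The strand setting of the counting is not given in the sources used here, so reads of antisense genes could be included, and reads common to near-identical Saa or Orm copies were lost.

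Totals were 24873817 to 44289343 counts per library, and intervals on counts of 0 cover counting error only. Groups came from the GEO labels. Genotypes were compared within each tissue, and tissues among WT libraries, with edgeR 4.0.16 (filterByExpr, count minimum 10, TMM, quasi-likelihood test, Benjamini-Hochberg adjustment over all genes tested, threshold 0.05; R 4.3.3). DESeq2 1.42.0, limma 3.58.1 voom, other scalings, no filter, a replicate block and leaving out each library were alternatives. Intervals are 95% and not adjusted. TPM used GENCODE M21 exon lengths, the log2 Hp per Alb ratio a pseudocount of 1, and Hp per Adipoq a divisor of at least 1 read. The edgeR step was run on simulated counts with 1 common dispersion for all genes of a tissue. This does not show how the test does for transcripts that spread more widely. The main tests treated all libraries as independent. The labels do not say whether organs with the same replicate number came from 1 mouse. Named were the 10 genes, Mtm1 and Alb, up to 3 called members of each list by smallest p or else its most abundant, and the 3 genes most like Hp, Saa3 and Lcn2. The members and lists were chosen with earlier results of these data known.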

Additional observations from a re-analysis of the deposited data

Results flagged for a closer look

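In the WT diaphragms, library 3 lay far from the other 3 libraries for 4 of the 10 transcripts. It had 69.4 CPM of Hp against 555 to 761 CPM, 9.51 CPM of Hpx against 620 to 720 CPM, 1.31 CPM of Apcs against 60.7 to 107 CPM, and 17.6 CPM of Fgb against 799 to 1480 CPM. Dixon's test divides the gap to the nearest library by the range of the group, here on log2 CPM. For these 4 transcripts this share exceeded the 95% critical value, which chance exceeds in about 1 in 20 groups, and 38 groups were examined. Alb in that library was 251 CPM, against 15500 to 22800 CPM in the others.

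The genotype effect differed between heart and gastrocnemius for 3 transcripts in edgeR's test of the interaction. The log2 effect in heart minus that in gastrocnemius was -3.39 for Hp (adjusted p = 0.0027), 3.22 for Hpx (adjusted p = 0.0075) and 4.77 for Fgb (adjusted p = 0.0098). Adipoq differed in the direction of Hp (-3.95) and Alb in the direction of Hpx and Fgb (4.57), and the part of adipocyte or hepatocyte RNA in these values was not tested.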

How the results depend on the processing

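Counts of called members that moved by over 1.5 times were these. In gastrocnemius, 0 became 2 with limma voom. In heart 0 became 3 with DESeq2, between WT heart and WT gastrocnemius 3 became 6, and between the liver and heart effects 0 became 3. The replicate block gave 2 in gastrocnemius (Hpx -1.42, adjusted p = 0.037, and Fgb -2.41, adjusted p = 0.0091) and moved no other count, but reversed Saa2 (-0.77) and Saa1 (-1.91) in diaphragm. Same-numbered samples were not treated as pairs in the main tests. Of the same-numbered pairs of genotypes within a tissue, 5 of 14 correlated above 0.1 (r from -0.637 to 0.46). Of the same-numbered pairs of WT tissues, 5 of 21 did (r from -0.093 to 0.233), and a shared mouse was not tested. Leaving out 1 library each gave 0 to 2 calls in gastrocnemius, 0 to 1 in heart, 1 to 4 between WT heart and WT gastrocnemius and 0 to 1 between the liver and heart effects. All other counts of calls and the Hp per Alb differences stayed within the limits.

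Directions reversed mainly in diaphragm. Without the 4 diaphragms of 15500 CPM or more of Alb, the log2 differences were Apcs 2.59, Lcn2 -0.06, Hpx 2.62, Hp 0.80, Fgb 2.38 and Orm1 1.26. With a hepatocyte score as covariate they were Apcs 0.46, Hpx 0.44 and Fgb 0.38, and with limma voom Saa2 -1.26 and Saa1 -1.89. Leaving out 1 library gave Apcs -2.94 to 0.41, Lcn2 -0.06 to 0.50, Hpx -3.12 to 0.49, Hp -2.09 to 0.12, Fgb -3.09 to 0.39, Orm1 -3.13 to 0.15, Saa2 -1.90 to 1.90, Orm2 -3.08 to 0.02 and Saa1 -2.56 to 0.74. In liver it gave Lcn2 -0.55 to 0.14, Hp -0.13 to 0.03 and Saa1 -0.45 to 0.09, and Lcn2 was 0.02 with limma voom. For Lcn2 the heart minus gastrocnemius effect was -0.05 to 0.57. In gastrocnemius an adipocyte score as covariate gave Hp -0.31 and Orm1 -0.45. The covariates and the choice by Alb were added after seeing the data, and the causes were not tested. Genes under edgeR's count filter were not tested with it, and DESeq2 called some of them, such as Apcs between the heart and gastrocnemius effects (adjusted p = 0.0019).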
